A study of Mus musculus with 6 samples.

Results

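Aminoacyl-tRNA synthetases, the enzymes that load amino acids onto transfer RNAs, were examined in mouse CD8+ T cells cultured with or without palmitate. The genes were chosen by enzyme family: 20 that encode cytosolic enzymes and 16 that encode mitochondrial enzymes, the symbols of which end in 2. They are 36 of the 29370 genes in the deposited matrix, and all 36 passed the filter on low counts and stood among the 12068 genes tested. The choice used no threshold on a measured value, but the family was picked with palmitate-against-control results of these same libraries known. The fold changes and calls therefore describe the members and are not independent evidence.

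The Palmitate group held 3 RNA-seq libraries of wild-type (WT) CD8+ T cells, the cytotoxic T lymphocytes, kept for 48 h in complete T cell medium with 100 µM palmitate, a saturated fatty acid. The Control group held 3 libraries of WT CD8+ T cells sampled at the same time; whether their medium held a vehicle is not stated. Lymph nodes, spleen and pancreas of mice had supplied the cells of all 6 libraries. Whether any libraries share an animal or a culture is not stated either, so each p-value reflects only how much these libraries vary, in part perhaps for technical reasons. The study set out to learn what palmitate does to the function of these cells.

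Gene counts summed to 16724588 to 24777611 per Palmitate library and 26042768 to 29362276 per Control library. The summed level of 6 T cell and CD8 genes (Cd3d, Cd3e, Cd3g, Cd8a, Cd8b1, Cd2) was 1486 to 1637 CPM (counts scaled to a common library total) in the Palmitate libraries and 1021 to 1240 CPM in the Control libraries, and 5 of the 6 were called higher (edgeR's test at an adjusted p under 0.05). Over all genes tested, 11.1% were called higher and 11.7% lower. Cd4 and Foxp3, which mark CD4 T cells, together gave 0.418 to 0.968 CPM in Palmitate libraries and 0.141 to 0.241 CPM in Control libraries, with Foxp3 at 0 in 2 Control libraries. A list of 8 B and plasma cell genes summed to 249.9 to 274.4 CPM in Palmitate libraries and 250.1 to 290.9 CPM in Control libraries; most of it was Xbp1, which T cells also express, and 2 of its 7 tested genes, Cd79a and Jchain, were called higher. Lists for NK, myeloid and pancreas acinar cells summed to at most 4.48 CPM in any Palmitate library and 4.85 CPM in any Control library, and Cpa1 was at 0 in every Control library. Mzb1 was at 0 in 1 Palmitate and 2 Control libraries. The part of these markers in the results was not tested, and in bulk RNA fewer cells of a type and less RNA per cell cannot be told apart.

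Each synthetase recognises an amino acid and the transfer RNAs that decode it, and joins them at the cost of ATP. The cytosol and the mitochondrion run separate protein synthesis with mostly separate synthetases, all of them encoded in the nucleus. Gars and Kars are exceptions that serve both compartments, Eprs joins the glutamate and proline enzymes in a single protein, and mitochondria make their glutaminyl-tRNA by amidation instead of with an enzyme of their own. The enzymes fall into structural classes I and II, and several cytosolic ones are held in a multisynthetase complex by the scaffold proteins Aimp1, Aimp2 and Eef1e1. In mammalian cells many cytosolic synthetase genes are targets of ATF4, the transcription factor of the response to amino acid shortage, and activated T cells need charged transfer RNAs for growth.

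Promoter windows of 300 bases (250 before and 50 after the gene's start, from RefSeq on GRCm38.p6) were given for 27 of the 36 genes, 13 cytosolic and 14 mitochondrial. They were searched on both strands for TGATGNAA, the core of the C/EBP-ATF element through which ATF4 acts; CACGTG, an E-box; CCGGAAGT, an ETS site; and GCATGCGC, the core of the element of NRF1, a regulator of nuclear genes for mitochondria. The C/EBP-ATF core was found in 5 of 13 cytosolic windows (Aars, Gars, Iars, Tars, Yars), in 0 of 14 mitochondrial windows and in 3.97% of all 32851 windows. The E-box was found in 4 cytosolic windows (Aars, Farsb, Iars, Tars), in the Ears2 window and in 7.15% of all windows. The ETS site stood in the Farsa, Mars1 and Rars2 windows and in 3.89% of all windows. The NRF1 core stood in no cytosolic window, in the 3 mitochondrial windows of Rars2, Vars2 and Wars2, and in 2.71% of all windows. No pair of these motifs overlapped in the windows printed here. These matches are a description of the letters and not of binding.

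Windows are shown 5′ to 3′ on the gene's strand for 4 genes, with motif matches in capitals. Tars (chr15:11399609-11399908, minus strand) and Aars (chr8:111033592-111033891, plus strand) both carry the C/EBP-ATF core and an E-box and differed in their values. Rars2 (chr4:34614707-34615006, plus strand) carries the NRF1 core and an ETS site, and Yars2 (chr16:16302715-16303014, plus strand), the mitochondrial gene with the smallest adjusted p, carries none of the 4 motifs.
Tars: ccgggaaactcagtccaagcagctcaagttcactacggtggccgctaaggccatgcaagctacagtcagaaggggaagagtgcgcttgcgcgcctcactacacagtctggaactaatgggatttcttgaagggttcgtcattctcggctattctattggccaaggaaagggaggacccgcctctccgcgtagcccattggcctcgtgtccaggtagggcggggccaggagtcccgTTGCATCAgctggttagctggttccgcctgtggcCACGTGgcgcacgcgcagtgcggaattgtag
Aars: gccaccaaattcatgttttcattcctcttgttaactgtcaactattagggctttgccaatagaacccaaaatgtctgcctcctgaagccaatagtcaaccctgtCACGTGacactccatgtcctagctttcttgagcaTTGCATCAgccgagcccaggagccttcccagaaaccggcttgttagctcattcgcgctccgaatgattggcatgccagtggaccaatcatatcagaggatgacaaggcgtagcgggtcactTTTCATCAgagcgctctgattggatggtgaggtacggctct
Rars2: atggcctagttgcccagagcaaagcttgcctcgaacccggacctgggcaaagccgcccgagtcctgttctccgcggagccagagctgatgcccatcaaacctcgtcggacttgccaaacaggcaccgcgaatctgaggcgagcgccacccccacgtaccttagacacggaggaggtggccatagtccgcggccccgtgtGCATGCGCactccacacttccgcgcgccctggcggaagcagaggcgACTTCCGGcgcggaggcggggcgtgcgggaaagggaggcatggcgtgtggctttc
Yars2: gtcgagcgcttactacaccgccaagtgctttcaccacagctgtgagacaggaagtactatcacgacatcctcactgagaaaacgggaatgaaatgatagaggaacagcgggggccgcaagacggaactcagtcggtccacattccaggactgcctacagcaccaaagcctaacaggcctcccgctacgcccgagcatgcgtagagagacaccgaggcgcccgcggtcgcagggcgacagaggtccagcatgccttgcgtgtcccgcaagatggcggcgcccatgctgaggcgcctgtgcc

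Per unit of transcript length, the cytosolic genes stood above nearly all of the mitochondrial ones. In TPM (the authors' length-scaled transcript values, summed per gene), cytosolic genes had group means of 66.1 to 320.3 with palmitate and 63.2 to 393.8 in control cells, and mitochondrial genes had 3.78 to 47.9 with palmitate and 3.41 to 68.5 in control cells. The highest cytosolic gene was Gars, for glycine, with 288.1, 351.7 and 321.1 TPM in the Palmitate libraries and 344.5, 440.5 and 396.6 TPM in the Control libraries. The ranges of Gars overlapped between the groups at a single point, Palmitate library 2 lying just above Control library 1. The highest mitochondrial gene was Yars2, for tyrosine, with 45.5, 48.6 and 49.6 TPM in the Palmitate libraries and 66.2, 67.3 and 71.9 TPM in the Control libraries. These did not overlap. The lowest gene was Aars2, for alanine, at 3.78 ± 0.22 TPM with palmitate and 3.41 ± 0.37 TPM in control cells (SD, n = 3 each).

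**Figure D1:**
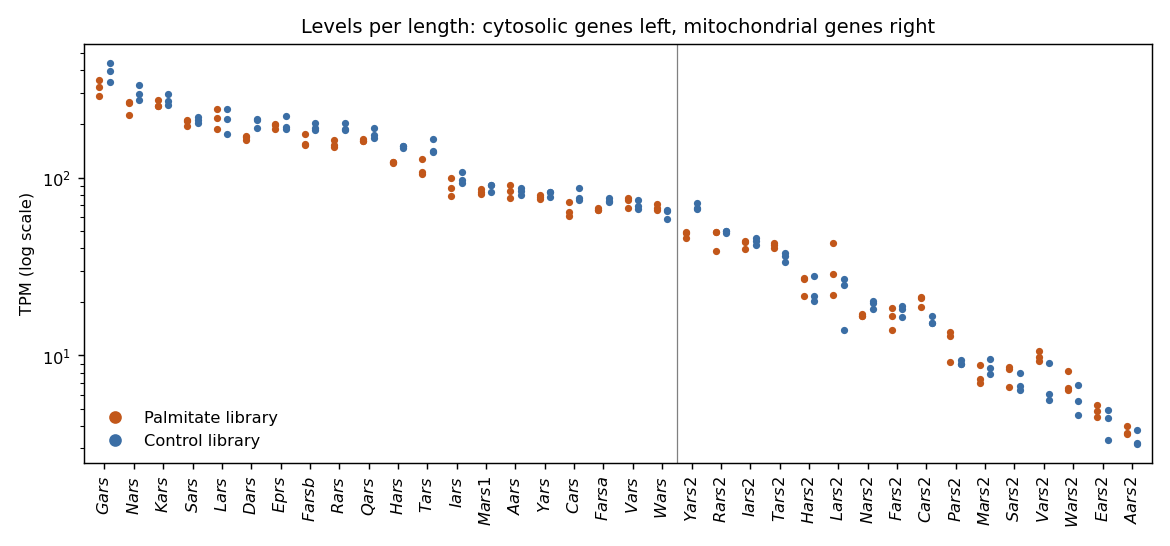
Level of each synthetase gene in TPM (log scale, vertical axis), 1 point per library, Palmitate libraries left of Control libraries within each gene; cytosolic genes stand left of the grey line and mitochondrial genes right of it. Every cytosolic gene has group means of at least 63.2 TPM, and Yars2 is the one mitochondrial gene with a mean above that, in control cells at 68.5 TPM.

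Summed over the 20 cytosolic genes, the level was 2790, 3075 and 2936 TPM in the Palmitate libraries and 3163, 3477 and 3242 TPM in the Control libraries. Every Palmitate library was below every Control library, and the ratio of the means was 0.891. Summed over the 16 mitochondrial genes, the level was 342.7, 355.3 and 323.8 TPM in the Palmitate libraries and 345.6, 332.2 and 344.3 TPM in the Control libraries. These ranges overlapped and the ratio of the means was 1.00, or 0.970 without Lars2. The outcome for the mitochondrial genes differed between TPM and CPM. Summed in CPM, from the gene matrix, they had 562.1 to 569.1 in the Palmitate libraries and 585.2 to 622.7 in the Control libraries. These did not overlap, and the ratio was 0.933, while the cytosolic ratio in CPM was 0.870. The sums differ in the reads counted as well as in the unit. TPM covered all transcripts, while the matrix held 12.1% of the reads of Lars2, 22.5% of Fars2, 46.9% of Cars2 and 73.4% of Tars2. Which of these differences mattered was not tested. No test was made on these sums, since the members were chosen with the results known.

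Of the 20 cytosolic genes, 5 were called lower with palmitate by edgeR's quasi-likelihood test at an adjusted p under 0.05 over all genes tested: Rars, Hars, Tars, Dars and Farsb. Of all 12068 genes tested, 11.7% were called lower (1416) and 11.1% higher (1343); upper-quartile scaling moved that split to 1052 lower and 1651 higher, where Farsb was no longer called (adjusted p = 0.0683) and 17 cytosolic genes were still below 0. The 20 log2 fold changes, palmitate over control, ran from -0.44 for Nars to 0.10 for Vars with a median of -0.17, and 17 were below 0; over all genes tested the median was 0.02 and 47.9% were below 0. In 9 of the 20 genes every Palmitate library was below every Control library, which held for 21.2% of all genes, and in 0 every Palmitate library was above every Control library, which held for 21.6% of all genes. No cytosolic gene was called higher by edgeR, DESeq2 or limma-voom, and 0 of 20 had an unadjusted p under 0.05 in the higher direction with any of them; edgeR gave 10 with an unadjusted p under 0.05 in the lower direction, limma-voom 10 and DESeq2 11.

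Rars encodes the arginyl-tRNA synthetase, a member of the multisynthetase complex. It had 262.6, 294.4 and 274.5 CPM in the Palmitate libraries and 343.1, 379.1 and 361.8 CPM in the Control libraries. The groups were far apart, and the log2 fold change was -0.38 ± 0.08 (SE; edgeR adjusted p = 0.0123), or 23.3% lower. Hars, for histidine, had 198.6, 216.7 and 221.1 CPM in the Palmitate libraries and 263.8, 269.4 and 264.1 CPM in the Control libraries. Its Control libraries lay within a few CPM of each other and all above the Palmitate libraries, and it fell by 0.33 ± 0.07 on the log2 scale (edgeR adjusted p = 0.0154). Hars and the mitochondrial Hars2 are neighbouring genes, and Hars2 had a log2 fold change of 0.03.

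Tars encodes the threonyl-tRNA synthetase, and its promoter window is the first of those printed. It had 221.5, 245.8 and 267.2 CPM in the Palmitate libraries and 284.7, 360.4 and 340.8 CPM in the Control libraries. The groups did not overlap, and the log2 fold change of -0.42 ± 0.11 (SE; edgeR adjusted p = 0.0273) put the Palmitate mean 25.5% lower. Dars, the aspartyl-tRNA synthetase of the complex, had 255.0, 273.4 and 285.8 CPM in the Palmitate libraries and 305.9, 357.1 and 363.0 CPM in the Control libraries. Control library 1 was the nearest to the Palmitate range, and the fall was 0.33 ± 0.09 (edgeR adjusted p = 0.0307). Farsb encodes the beta subunit of the cytosolic phenylalanine enzyme. It had 206.1, 225.8 and 220.9 CPM in the Palmitate libraries and 244.7, 265.3 and 274.2 CPM in the Control libraries, and it fell by 0.26 ± 0.07 (edgeR adjusted p = 0.0367). The alpha subunit gene Farsa, which was not called, had a log2 fold change of -0.16 and also no overlap, with 100.6 to 105.3 CPM in the Palmitate libraries and 111.7 to 122.3 CPM in the Control libraries.

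**Figure D2:**
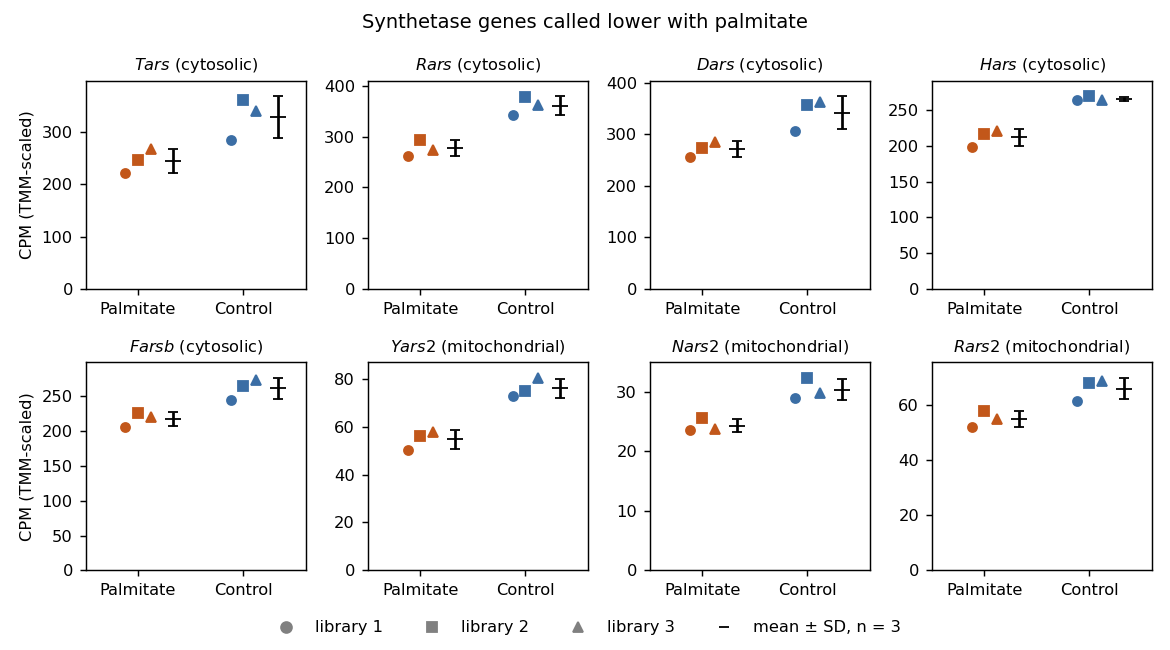
CPM on TMM-scaled library sizes (vertical axes, each from 0) of the 8 synthetase genes called lower with palmitate, 1 point per library with the mean ± SD (n = 3) beside it. In each of the 8 panels all 3 Palmitate libraries lie below all 3 Control libraries; Rars, for example, had 262.6 to 294.4 CPM with palmitate and 343.1 to 379.1 CPM in control cells.

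The gene with the lowest cytosolic log2 fold change, Nars, for asparagine, was not called. It had 183.2, 207.8 and 222.2 CPM in the Palmitate libraries and 211.4, 343.4 and 277.9 CPM in the Control libraries. The spread of its Control libraries was wide, Control library 1 lay inside the Palmitate range, and the log2 fold change was -0.44 ± 0.17. Gars, the most abundant in TPM though not in CPM, had 557.8, 719.8 and 680.0 CPM in the Palmitate libraries and 695.6, 911.4 and 840.2 CPM in the Control libraries. Its groups overlapped and its log2 fold change was -0.32 ± 0.13, also not called. Vars, for valine, had the highest log2 fold change, 0.10 ± 0.07, with 226.6, 209.1 and 216.1 CPM in the Palmitate libraries and 213.7, 194.7 and 198.0 CPM in the Control libraries; the groups overlapped. Wars, for tryptophan, at 0.09 and Aars at 0.03 were the other two above 0. For Aars, the gene with the C/EBP-ATF core in the second window printed, the Palmitate libraries had 298.8 to 368.3 CPM and the Control libraries 317.0 to 352.4 CPM, the Control range lying inside the Palmitate range.

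Within the cytosolic enzymes, all 8 genes of the multisynthetase complex (Dars, Eprs, Iars, Kars, Lars, Mars1, Qars, Rars) had a log2 fold change below 0, with a median of -0.17, and 2 were called. Of the 12 outside the complex, 9 were below 0, with a median of -0.21 (Vars, Wars and Aars were above), and 3 were called. Class I enzymes gave 1 call among 9 genes and a median of -0.15, and class II enzymes gave 4 calls among 10 genes and a median of -0.29; Eprs, which joins a class I and a class II enzyme, stood at -0.12. Of the 5 cytosolic genes whose promoter window holds the C/EBP-ATF core, 1 was called lower (Tars) and the median was -0.25; of the 8 whose window lacks it, 2 were called lower (Dars and Farsb) and the median was -0.16. No window was given for Cars, Hars, Lars, Nars, Rars, Vars and Wars, so the called genes Rars and Hars are in neither motif group. Each of the counts in these subgroups stands beside the 11.7% of all genes called lower, and the subgroups were not tested against each other.

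The libraries carried the numbers 1 to 3 in both groups, and libraries of the same number had correlated deviations from their group means, so Palmitate and Control were also compared within each number. The Palmitate library was the lower at all 3 numbers for 16 of the 20 cytosolic genes, which held for 30.1% of all genes, and the higher at all 3 numbers for Vars alone, which held for 32.4% of all genes. Gars, whose groups overlapped, had log2 ratios of -0.32, -0.34 and -0.31 at the numbers 1, 2 and 3. Rars was as even, at -0.39, -0.36 and -0.40, while Nars ranged from -0.72 at number 2 to -0.21 at number 1. Libraries numbered 1 were the lowest of both groups for 15 of the 20 cytosolic genes and for 3 of the 16 mitochondrial genes. The share over all genes was not counted. With the number as a block in the edgeR fit, 9 cytosolic genes were called lower and 0 higher, where 16.6% of all genes were called lower and 16.5% higher. The 4 added were Cars (adjusted p = 0.00612), Gars (0.00771), Nars (0.024) and Iars (0.0287).

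The number of cytosolic calls depended on single libraries, as did the number over all genes. Cytosolic calls numbered 2, 2 and 3 without Palmitate libraries 1, 2 and 3, all lower. They numbered 8, 2 and 0 without Control libraries 1, 2 and 3, also all lower. Over all genes, lower calls numbered 1416 with all libraries and 769, 905 and 638 without Palmitate libraries 1, 2 and 3. They numbered 1829, 705 and 346 without Control libraries 1, 2 and 3. Without Control library 3, edgeR gave 6 cytosolic genes with an unadjusted p under 0.05, all lower. That fit called 690 of all genes in either direction, against 2759 with all libraries. Rars and Hars kept their calls in 5 of 6 such fits, Tars in 2, and Dars and Farsb in 1 each.

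**Figure D3:**
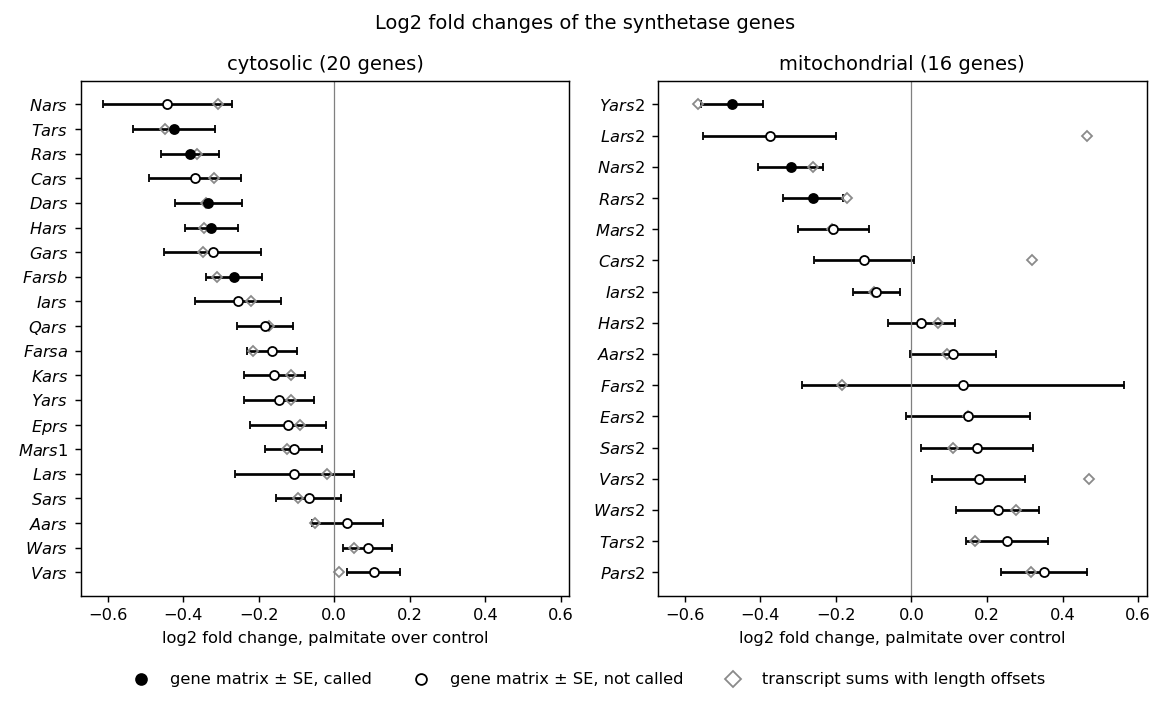
Log2 fold changes, palmitate over control, of the 20 cytosolic genes (left) and 16 mitochondrial genes (right), ordered by the value from the gene matrix; circles with bars are that value ± SE, filled where called, and diamonds come from sums of each gene's transcripts with length offsets. Cytosolic values lie below 0 for 17 of 20 genes and mitochondrial values for 7 of 16, and the diamonds of Lars2, Cars2, Fars2 and Aars stand on the other side of 0 from their circles.

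Of the 16 mitochondrial genes, 3 were called lower (Yars2, Nars2 and Rars2), beside the 11.7% of all genes called lower. With the settings as reported none was called higher by edgeR, DESeq2 or limma-voom, and 2 had an unadjusted p under 0.05 in that direction with each of the 3 tools. Other edgeR settings called Pars2 higher: upper-quartile scaling (adjusted p = 0.0425, with Yars2 alone lower), a minimum mean of 5 CPM (0.0428, with 2 lower) and the fit without Control library 1 (0.035). The log2 fold changes ran from -0.48 to 0.35 with a median of 0.07, and 7 were below 0 and 9 above. Every Palmitate library was below every Control library for 4 genes (the 3 called and Iars2, for isoleucine, at -0.09) and above for 2 (Pars2 and Wars2), beside 21.2% and 21.6% of all genes. Within the library numbers, 6 genes were lower with palmitate at all 3 numbers and 6 were higher at all 3, beside 30.1% and 32.4% of all genes.

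Yars2, the mitochondrial tyrosine enzyme, had 50.2, 55.9 and 57.8 CPM in the Palmitate libraries and 72.8, 74.7 and 80.3 CPM in the Control libraries. The gap between the groups was wider than the range within either, and the log2 fold change was -0.48 ± 0.08 (SE; edgeR adjusted p = 0.00802), or 28.1% lower. It was the only synthetase gene called in all 6 fits that left out 1 library. Nars2, for asparagine, had 23.6, 25.5 and 23.7 CPM in the Palmitate libraries and 28.9, 32.3 and 29.8 CPM in the Control libraries. It fell by 0.32 ± 0.09 (edgeR adjusted p = 0.0313). Rars2, for arginine, whose window holds the NRF1 core, had 52.1, 57.8 and 55.0 CPM in the Palmitate libraries and 61.4, 67.7 and 68.5 CPM in the Control libraries. These did not overlap, and Rars2 fell by 0.26 ± 0.08 (edgeR adjusted p = 0.0482).

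Pars2, the mitochondrial proline enzyme, had the highest log2 fold change of the family, 0.35 ± 0.11, and was not called. It had 16.2, 15.8 and 17.0 CPM in the Palmitate libraries and 14.0, 11.3 and 13.1 CPM in the Control libraries. Tars2, for threonine, had 0.25 ± 0.11, and its groups overlapped slightly, with 49.6 to 58.0 CPM in the Palmitate libraries and 39.7 to 50.7 CPM in the Control libraries. With the library number as a block, edgeR called Pars2 (adjusted p = 0.0303) and Tars2 (0.0374) higher and Lars2, for leucine (0.0393), lower beside the 3 genes named, 6 calls in all. That fit called 16.5% of all genes higher and 16.6% lower. Fars2, for phenylalanine, had the largest error of the family, with 3.11, 2.56 and 7.76 CPM in the Palmitate libraries and 4.61, 2.97 and 4.44 CPM in the Control libraries, and a log2 fold change of 0.14 ± 0.43. The value of Fars2 rests on Palmitate library 3: without it the log2 fold change was -0.50.

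Mitochondrial calls numbered 1 without each of Palmitate libraries 1, 2 and 3 and Control libraries 2 and 3, all of them lower, and 4 without Control library 1, of which 3 were lower and 1, Pars2, higher. Over all genes, edgeR called 2759 with all libraries and 3433 without Control library 1. Without each of the other libraries it called 690 to 1651. Nars2 (adjusted p = 0.0887) and Rars2 (0.233) were not called by edgeR on sums of transcripts with length offsets, and in TPM the Rars2 groups overlapped, with 38.6 to 49.4 TPM in the Palmitate libraries and 48.6 to 50.1 TPM in the Control libraries.

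Genes were set side by side where an amino acid has an enzyme in each compartment, which gave 17 pairs, with Eprs and Fars2 each used in 2 of them. In the gene matrix the cytosolic log2 fold change was the lower in 14 pairs and the mitochondrial one in 3 (leucine, methionine and tyrosine). The leucine pair turned on sums of transcripts, with -0.11 for Lars and 0.47 for Lars2, which made the tally 15 and 2, with length offsets as well. The widest gap in the matrix was for threonine, -0.42 for Tars and 0.25 for Tars2; on sums with length offsets cysteine was wider, -0.32 for Cars and 0.32 for Cars2, against -0.45 for Tars and 0.17 for Tars2. In the matrix tyrosine was the widest the other way, -0.15 for Yars and -0.48 for Yars2. For arginine both enzymes were called lower, Rars at -0.38 and Rars2 at -0.26, and asparagine had -0.44 for Nars and -0.32 for Nars2. In TPM the cytosolic gene exceeded its partner in every pair, by 1.63 to 39.9 times with palmitate and 1.19 to 47.2 times in control cells, with tyrosine the lowest and glutamate the highest. The ratio of Yars to Yars2 was 1.63 with palmitate and 1.19 in control cells, and that of Tars to Tars2 was 2.71 with palmitate and 4.16 in control cells. The difference between the compartments is a description with no test.

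**Figure D4:**
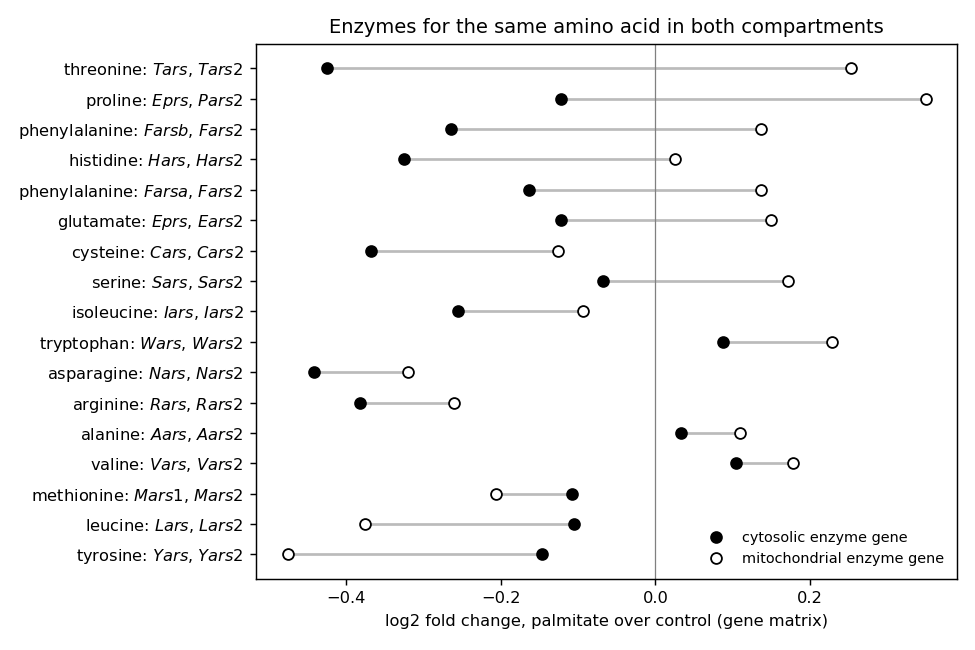
Log2 fold changes, palmitate over control, from the gene matrix, of the cytosolic (filled) and mitochondrial (open) genes for the same amino acid, joined by a grey line and ordered by the gap. The filled point lies left of the open one in 14 of 17 pairs, or in 15 if sums of transcripts are used, where leucine turns; the widest gap plotted is threonine, -0.42 for Tars and 0.25 for Tars2.

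For 6 synthetase genes the matrix held under 90% of the reads that the authors' transcript tables give to the gene: Tars2 (73.4%), Cars2 (46.9%), Qars (42.0%), Nars (41.2%), Fars2 (22.5%) and Lars2 (12.1%). For Nars, Cars2 and Lars2 the matrix equalled a single protein-coding transcript to within 2 reads. Lars2 is the clearest case. Its counted transcript had 264, 205 and 149 reads in the Palmitate libraries and 425, 256 and 310 reads in the Control libraries, while a transcript annotated as a target of nonsense-mediated decay held 84.4% of the reads, with 1371, 3458 and 1466 in the Palmitate libraries and 822, 2017 and 2057 in the Control libraries. The log2 fold change of Lars2 was -0.38 in the matrix and 0.47 in sums of its transcripts, called in neither. Cars2, for cysteine, had -0.13 in the matrix and 0.32 in sums with length offsets, where edgeR called it higher (adjusted p = 0.0487); a processed transcript of it with no coding annotation had 4.71, 5.05 and 5.18 TPM in the Palmitate libraries and 3.27, 3.80 and 3.22 TPM in the Control libraries, while its protein-coding transcript had 6.90, 6.13 and 6.25 TPM in the Palmitate libraries and 7.66, 5.91 and 7.18 TPM in the Control libraries. Both main Nars transcripts had lower means with palmitate, 109.2 TPM with palmitate and 129.4 TPM in control cells for the uncounted one, and 85.6 TPM with palmitate and 113.2 TPM in control cells for the counted one.

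**Figure D5:**
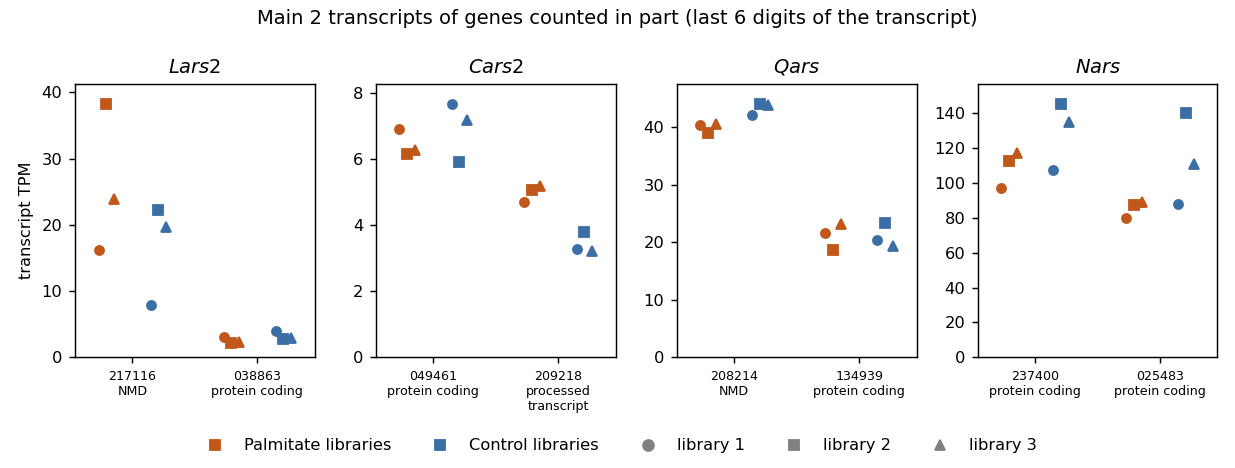
TPM (vertical axes, each from 0) of the 2 main transcripts of Lars2, Cars2, Qars and Nars, labelled by the last digits of their identifiers and their annotated type, 1 point per library, Palmitate left of Control. The decay-annotated Lars2 transcript had 16.2 to 38.3 TPM in Palmitate libraries and 7.86 to 22.3 TPM in Control libraries, and the protein-coding one had 2.17 to 2.99 TPM in Palmitate libraries and 2.71 to 3.89 TPM in Control libraries.

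Proteins that work with the synthetases were taken from lists set with earlier results known, and their counts of calls stand beside 11.7% of all genes called lower and 11.1% called higher. Of the 3 scaffold genes of the multisynthetase complex, Eef1e1 was called lower and 0 higher. Eef1e1 had 98.8, 117.9 and 113.5 CPM in the Palmitate libraries and 143.3, 209.3 and 169.7 CPM in the Control libraries, without overlap, and a log2 fold change of -0.66 ± 0.14 (edgeR adjusted p = 0.0165). The matrix held 82.7% of its reads, and on sums of transcripts with length offsets it was -0.33 and not called (adjusted p = 0.0603), nor was it called without Palmitate library 1 or 3 or Control library 3. Aimp1 (-0.05) and Aimp2 (-0.23) were not called.

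Of the 4 genes that complete charged transfer RNAs in mitochondria, 2 were called lower. Mtfmt, which formylates the initiator methionyl-tRNA, had 27.3, 30.4 and 27.2 CPM in the Palmitate libraries and 37.8, 39.2 and 37.7 CPM in the Control libraries. It fell by 0.43 ± 0.08 (edgeR adjusted p = 0.0112) and kept its call in all 6 fits without 1 library. Gatc, a subunit of the amidotransferase that makes mitochondrial glutaminyl-tRNA, fell by 0.47 ± 0.13 (edgeR adjusted p = 0.0329), with 10.3 to 12.7 CPM in the Palmitate libraries and 14.5 to 17.4 CPM in the Control libraries, and was not called without Palmitate library 1 or 2 or Control library 2 or 3. The other subunits, Gatb (-0.07) and Qrsl1 (0.01), were not called.

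Downstream of charging, 2 of 8 mitochondrial translation factors were called lower and 0 higher. Gfm2, the factor that helps to recycle mitochondrial ribosomes, had 48.0, 50.4 and 50.1 CPM in the Palmitate libraries and 64.1, 66.0 and 64.6 CPM in the Control libraries. These ranges were narrow and well apart, and Gfm2 fell by 0.39 ± 0.07 (edgeR adjusted p = 0.00837, called in all 6 fits without 1 library). Gfm1, the mitochondrial elongation factor G, fell by 0.35 ± 0.08 (edgeR adjusted p = 0.0197; not called without Palmitate library 1 or 3 or Control library 2 or 3). Without Control library 1, 3 of the 8 were called lower, as were 1829 of the 12332 genes tested in that fit. Of 5 cytosolic elongation factor genes, 2 were called higher and 0 lower. Eef2, which moves the ribosome along the mRNA, had 2789, 2688 and 3064 CPM in the Palmitate libraries and 2482, 2240 and 2307 CPM in the Control libraries and rose by 0.28 ± 0.08 (edgeR adjusted p = 0.0421). Eef1g rose by 0.27 ± 0.08 (edgeR adjusted p = 0.0399), and Eef1a1, Eef1b2 and Eef1d had log2 fold changes of -0.02, 0.06 and 0.02. Neither rise was called on sums of transcripts with length offsets (adjusted p = 0.0692 for Eef2 and 0.0654 for Eef1g), nor without Palmitate library 2 or 3 or Control library 2 or 3; without Palmitate library 1 only Eef1g was.

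ATF4 and its targets were set beside the synthetases because many cytosolic synthetase genes are among those targets. Of 22 genes in the list, 3 were called higher and 3 lower, beside 11.1% and 11.7% of all genes, and the median log2 fold change was 0.02. Ddit3, a transcription factor of the stress response, had 28.1, 38.2 and 40.9 CPM in the Palmitate libraries and 10.2, 16 and 14.2 CPM in the Control libraries. It rose by 1.41 ± 0.20 (edgeR adjusted p = 0.00559), with every Palmitate library above every Control library, and was called in all 6 fits without 1 library. Atf5, a related factor, rose by 0.97 ± 0.22 (edgeR adjusted p = 0.0201), and Slc3a2, the heavy chain of amino acid transporters, by 0.38 ± 0.09 (edgeR adjusted p = 0.0245). The matrix held 63.4% of the Slc3a2 reads, and it had 0.03, not called, on sums of transcripts with length offsets. Lower were Psat1 (-0.46, edgeR adjusted p = 0.0353) and Psph (-0.58, 0.0453), both of serine synthesis, and Mthfd2 (-0.47, 0.0456), of mitochondrial folate metabolism. Atf4 itself (-0.11) and Asns, the asparagine synthetase (-0.22), were not called. With the library number as a block, edgeR called 5 higher, with Sesn2 (adjusted p = 0.00286) and Nupr1 (0.0364) added, and 3 lower. That fit called 16.5% of all genes higher and 16.6% lower. The 3 lower calls were lost without any single library other than Control library 1, and the higher calls numbered 1 without Palmitate library 2 or 3 or Control library 3.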

How the data were processed

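Per the labels' protocols, total RNA came from RNeasy kits and the library kit was SMARTER mRNA-Seq. The submitters' processing notes name the build GRCm39 and the tools Salmon 1.10.0, Trim Galore 0.6.10 and DESeq 1.42.0. Neither the strand setting nor the transcript-to-gene table is given in the sources used here. A matrix deposited by the authors holds estimated counts per gene in whole numbers for all libraries, and they deposited for each library a Salmon transcript table with expected counts, TPM and effective lengths. No matrix column was left unused (0), and 0 entries named no gene. Symbols came from GENCODE M21 and a gene name table (29134 of 29370 identifiers). That annotation is on GRCm38, so gene coordinates are not printed, and promoter windows keep the build of their RefSeq table. It matched 114857 of 116224 transcripts (98.82%). Of 9847 genes with at least 500 transcript reads, 1935 had under 90% of them in the matrix. Salmon divides reads between near-identical transcripts, and without the strand setting overlapping genes cannot be told apart.

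The test was edgeR 4.0.16 in R 4.3.3: low counts were filtered with edgeR's default, libraries were TMM-scaled, and the group alone was fitted over 6 libraries with robust quasi-likelihood, followed by a two-sided test and Benjamini-Hochberg adjustment over 12068 genes, with calls at 0.05. CPM are counts on TMM-scaled library sizes. Gene TPM are sums of the authors' transcript TPM. Both groups carry replicate numbers 1 to 3 in their labels. Deviations from group means correlated at 0.321, 0.21 and 0.185 between same-number libraries and at -0.27 to 0.087 otherwise. Within a group these deviations cancel out, so positive values for some pairs go with negative values for others. The labels state no pairing, and the calls as reported come from the fit on the group alone. A blocked fit on the number was run as an alternative. Replicates differed by more than sampling noise (chi-square per gene 11.44 to 37.9). Other alternatives were upper-quartile and RLE scaling, a mean of at least 5 CPM and no filter, DESeq2 1.42.0, voom in limma 3.58.1, sums of transcript counts (rounded) with and without length offsets, and leaving out each library. The edgeR step was tested on simulated data. Log2 fold changes have standard errors (SE), and n is 3 libraries a group.

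The members, the related lists, the marker lists and the motifs were chosen with earlier results of these data known. Full values were given for each called member and, in each compartment, for the most abundant member and those with the highest and lowest log2 fold change; of each related list, up to 4 called genes with the smallest adjusted p were named. Other genes were named after their values were seen. The marker Amy2a2 matched no gene and was not analysed here, and the values of some single markers are not reported here.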

Additional observations from a re-analysis of the deposited data

How the results depend on the processing

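Cytosolic calls, 5 as reported, numbered 8 with DESeq2 and 9 with the replicate block, and 0 to 8 over the fits that left out 1 library. Mitochondrial calls, 3 as reported, numbered 6 with the replicate block (4 lower, 2 higher) and 1 to 4 over those fits (Pars2 higher, the rest lower). Calls over all genes moved as well. They numbered 2759 as reported, 3189 with DESeq2, 3993 with the replicate block and 690 to 3433 over the fits that left out 1 library. The block changed no call among members other than those of Cars, Gars, Iars, Nars, Lars2, Pars2 and Tars2. The median cytosolic log2 fold change stayed below 0 under every alternative, at -0.235 to -0.143 over the fits without 1 library. The mitochondrial median, 0.068 as reported, was -0.032 with limma-voom and -0.028 (without Control library 2) to 0.098 over the fits without 1 library. Of the members' fold changes, 474 values kept their direction and side of the threshold, 34 kept the direction and lost the call, 17 gained one, and 14 changed sign. Those were Aars (-0.05 with length offsets, and -0.034 to 0.114 over the fits without 1 library, below 0 without Palmitate library 2 and without Control library 1, at -0.004), Lars (-0.252 to 0.026 over those fits, above 0 without Control library 2), Cars2 (0.229 and 0.319 on transcript sums without and with offsets), Lars2 (0.471 and 0.466 likewise), Fars2 (-0.096 with limma-voom, -0.185 with offsets, and -0.504 to 0.415 over those fits, below 0 without Palmitate library 3 and, at -0.041, without Control library 2) and Hars2 (-0.036 to 0.079 over those fits, below 0 without Palmitate library 2 and, at -0.015, without Control library 2). For Cars2, Lars2 and Fars2 the sums add transcripts that the matrix does not count. Without offsets the Fars2 sum gave 0.072, with its sign kept. The cause of the changes of sign was not tested.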

Other observations

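Genes that make and trim transfer RNAs moved in both directions with palmitate. Of 16 such genes, 15 were tested, and edgeR called 4 higher and 4 lower, beside 11.1% and 11.7% of all genes. Maf1, the repressor of RNA polymerase III, which transcribes transfer RNA genes, had 60.3, 59.8 and 60.4 CPM in the Palmitate libraries and 42.3, 34.2 and 41.9 CPM in the Control libraries. It rose by 0.61 ± 0.10 on the log2 scale (SE; edgeR adjusted p = 0.00632) and was called in all 6 fits without 1 library. Trnt1, which adds the terminal CCA to transfer RNAs, averaged 225.9 ± 15.2 CPM with palmitate and 307.9 ± 24.7 CPM in control cells (SD, n = 3 each) and fell by 0.45 ± 0.09 (edgeR adjusted p = 0.0114), a call lost without Control library 3. The polymerase III subunit Polr3c rose by 0.40 ± 0.08 (edgeR adjusted p = 0.0113), lost without Control library 3, and Elac1, a transfer RNA 3′ endonuclease, rose by 0.97 ± 0.20 (edgeR adjusted p = 0.0152), lost without Palmitate library 1 or 3 or Control library 3. The other calls were Brf1 higher and the subunits Polr3d, Polr3f and Polr3g lower. The matrix held 66.6% of the Brf1 reads. On sums of transcripts with length offsets edgeR did not call Brf1 (adjusted p = 0.0558), Polr3d (0.14) or Polr3g (0.237). Polr3f was still called lower there (edgeR adjusted p = 0.0369). Higher and lower calls numbered 2 and 2 without Palmitate library 1, 3 and 2 without library 2 and 2 and 1 without library 3, and 4 and 4, 3 and 1, and 1 and 0 without Control libraries 1, 2 and 3. Xpot, the exporter of transfer RNAs from the nucleus, had no reads in the gene matrix, though the authors' transcript counts gave it 53909.5 reads. On sums of transcripts edgeR gave it a log2 fold change of -0.47 (adjusted p = 0.0148). That fit called 1771 of 13088 genes lower and 1600 higher.

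Of 5 genes for synthetase-like and editing proteins, 1 was called lower and 0 higher, beside 11.7% and 11.1% of all genes. None had an unadjusted p under 0.05 in the higher direction with edgeR, DESeq2 or limma-voom. Dtd2, a deacylase of mischarged transfer RNAs, had 11.0, 12.9 and 13.5 CPM in the Palmitate libraries and 16.3, 17.1 and 18.4 CPM in the Control libraries, and fell by 0.47 ± 0.12 (edgeR adjusted p = 0.0246), a call lost without Palmitate library 1 or 2 or Control library 2 or 3. With the library number as a block, Prorsd1 was also called lower (edgeR adjusted p = 0.0339), as were 16.6% of all genes.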
